A study of Arabidopsis thaliana with 7 samples.

Results

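SOC1 and 4 of its closest relatives among the Arabidopsis thaliana MADS-box genes, AGL42, AGL72, AGL71 and AGL19, were followed across seedlings with overactive, lost or normal SOC1. Each gene was read by 1 probe set, taken by the identity of the gene, so the set holds 5 of the 22746 probe sets on the arrays. The genes were chosen with earlier results of these data known. Total RNA of whole seedlings was labelled with biotin and measured on 7 one-colour arrays. There were 3 arrays of soc1-101D, a gain-of-function mutant of SOC1 that flowers early and has Col as its basal strain, 1 array of soc1-2, a late-flowering knock-out with the same basal strain, and 3 arrays of Col, the wild type. All seedlings were 7 days old and had grown at 21 °C under 16 h of light and 8 h of dark. The labels number experiments 1, 2 and 3, each with 1 array of soc1-101D and 1 of Col, and soc1-2 has its array in experiment 3. As background, soc1-101D is known as an activation-tagged allele, in which inserted enhancers raise transcription near the insertion.

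MADS-box proteins are transcription factors that bind DNA in pairs at CArG boxes. SOC1 is known to gather signals from day length, cold, gibberellin and age at the shoot apex and to switch on genes of the floral meristem, together with its partner AGL24. Its nearest relatives form the TM3 clade, whose members mostly promote flowering as well.

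The gene table used here does not list the probe set of SOC1 (AT2G45660), and its identity as SOC1 came with the choice of members. The other 4 are listed under their symbols: AGL42 (AT5G62165, probe set 247469_at), AGL72 (AT5G51860, 248373_at), AGL71 (AT5G51870, 248374_at) and AGL19 (AT4G22950, 254286_at). AGL72 and AGL71 are neighbours, with no other protein-coding gene between them in the RefSeq gene table of TAIR10.1, and SOC1 lies beside the MADS-box gene AGL6. AGL14, a further TM3-clade gene, and AGL6 had no probe set named here.

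SOC1 read higher on every soc1-101D array than on any soc1-2 or Col array. Its scaled signal, the deposited intensity after each array was brought to the common median of 192.7, was 2971 in experiment 1, 2457 in experiment 2 and 2553 in experiment 3 on the soc1-101D arrays. It was 14.3 on the soc1-2 array. On the Col arrays of the same experiments it was 8.26, 6.59 and 139. The soc1-101D arrays stayed within a narrow band, with a coefficient of variation of 10.3%, and none came near a Col array.

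The place of SOC1 within each array shows how far it moved. On the soc1-101D arrays its signal stood at percentiles 95.7, 94.6 and 93.7 of all probe sets. In soc1-2 it stood at percentile 15.6. On the Col arrays it stood at percentiles 8.79, 7.59 and 43.9. Among the Col arrays, SOC1 was at the dim end in experiments 1 and 2 and near the middle in experiment 3, while it was at the bright end on every soc1-101D array.

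**Figure D1:**
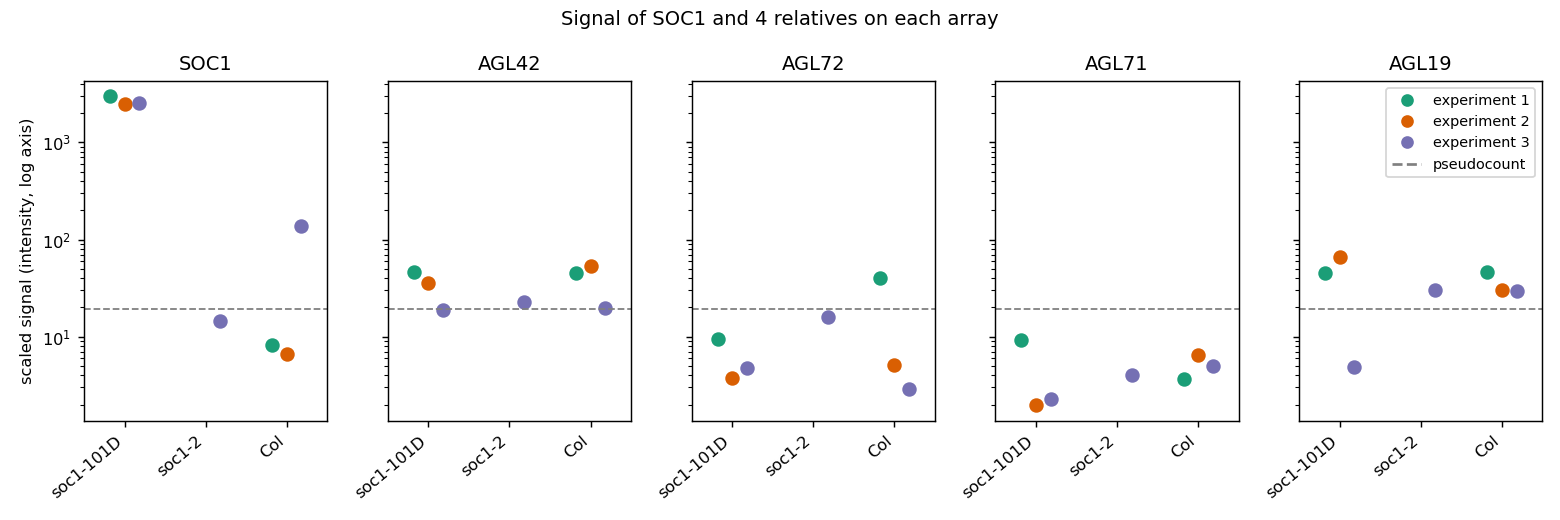
Scaled signal (intensity, log axis) of SOC1 and its 4 relatives on each of the 7 arrays, grouped as soc1-101D, soc1-2 and Col. Each point is 1 array, coloured by experiment, and the dashed line is the pseudocount of 19.3. SOC1 sits between 2457 and 2971 in soc1-101D and between 6.59 and 139 in Col, while none of the relatives passes 65.7 on any array.

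The comparison of soc1-101D with Col asked how far SOC1 itself rose. Its mean signal was 2660.4 ± 274 in soc1-101D and 51.4 ± 76.2 in Col (SD, n = 3 each). The Col readings of experiments 1 and 2 were under the 10th percentile of their own arrays, 9.65 and 8.75, so no plain ratio is given against them. In experiment 3, where Col read 139, the plain ratio of soc1-101D to Col was 18.3.

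SOC1 entered the test only because of its soc1-101D arrays. The dimmest 40% of probe sets, by mean log2 signal over the 7 arrays, were left out, and on the 4 other arrays the mean log2 signal of SOC1 stood at percentile 18.7. Its call in the filtered test therefore depends on the change that is tested.

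For the test, a pseudocount of 19.3 (0.1 times the common median) was added before taking log2. The log2 differences were then 6.76, 6.58 and 4.02 in experiments 1, 2 and 3, with an SD of 1.54. With the genotype and the experiment number in the model, SOC1 was 55.2-fold higher in soc1-101D on this scale (log2 5.79 ± 0.48, limma SE), with a limma adjusted p of 0.00655 among the 13648 probe sets that passed the filter and of 0.456 with no filter (unadjusted p = 0.000298). It had the highest rise of the 13648. In the filtered comparison 37 probe sets were called higher, 0.271% of those tested, at an adjusted p under 0.05. An exact permutation test of the 3 soc1-101D against the 3 Col values left out the pairing by experiment. It gave a two-sided p of 0.1, the smallest that its 20 splits allow.

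With no filter limma called 0 of 22746 probe sets (1714 at an unadjusted p under 0.05). With the filter but without the experiment as a block, the limma adjusted p of SOC1 was 0.472.

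Loss of SOC1 was followed on the single soc1-2 array. It read 14.3, against 139 on the Col array of experiment 3. On the scale with the pseudocount soc1-2 was 4.72-fold lower than that Col array (log2 −2.24). Of the tested probe sets, 0.139% were at least 2-fold lower on soc1-2. This share is no yardstick for SOC1. Without the gain-of-function arrays its mean log2 signal stood at percentile 18.7, among probe sets that the filter leaves out. The share among probe sets as dim as that was not counted. Col of experiments 1 and 2, at 8.26 and 6.59, and soc1-2 were all under the pseudocount, where no order can be read.

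The fitted soc1-2 difference of SOC1 was log2 −1.35 (95% interval −3.10 to 0.39, limma adjusted p = 1.00). The plain difference from the mean of all 3 Col arrays, outside this fit, was −0.52. The lone soc1-2 array takes its spread from the other pairs in this fit, and limma called 0 probe sets, 0% of those tested, with 387 at an unadjusted p under 0.05.

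The Col arrays themselves differed in SOC1. It read 139 in experiment 3, against 8.26 and 6.59 in experiments 1 and 2, both under the 10th percentile of their arrays. On the log2 scale with the pseudocount it exceeded the higher of the other Col signals by 2.53. A gap of at least this size was found in 6 of the 22746 probe sets, SOC1 included, or 0.0264%.

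The other 5 probe sets with such a gap were also high on the soc1-2 array. AT2G43620 read 4356 on soc1-2, against 4548 on Col of experiment 3. AT4G15660 read 92.7 on soc1-2, against 209.8 on that Col array. The remaining 3, which are unnamed here, read 241, 319 and 3354 on soc1-2, against 292, 298 and 3408 on that Col array. SOC1, with 14.3 on soc1-2, had the lowest share of the Col signal among the 6, a description of 1 array per genotype.

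The 4 relatives were dim in every genotype. Over their 28 readings the signal ran from 1.97 to 65.7, and the percentile within the array from 0.796 to 30.0. None of the 4 passed the filter on dim probe sets, so their differences are given from the fit with no filter, which tested all 22746 probe sets and called 0. A signal this low does not show whether a gene is silent, since no detection calls were used here. In whole seedlings, fewer cells with a transcript and less transcript per cell cannot be told apart.

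AGL42 encodes a TM3-clade factor that promotes flowering and is also known from the root quiescent centre. Its signal was 46.7, 35.8 and 18.8 in soc1-101D, in the order of experiments 1 to 3 used for all values from here on. It was 22.5 in soc1-2 and 45.1, 53.0 and 19.8 in Col. The genotypes overlapped, and soc1-101D and Col read nearly alike in experiments 1 and 3.

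The fitted AGL42 difference between soc1-101D and Col was log2 −0.13 (95% interval −0.59 to 0.32, limma adjusted p = 0.888), an interval on the scale with the pseudocount, which narrows differences between signals this low. In soc1-2 the plain difference from Col of experiment 3 was 0.10.

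Across experiments AGL42 split cleanly, a comparison added after the data were seen. Its 3 arrays of experiment 3 read 18.8 to 22.5, below all 4 arrays of experiments 1 and 2, at 35.8 to 53.0. The difference of experiment 3 from experiments 1 and 2 was log2 −0.73 ± 0.18 (limma SE) and did not pass over all probe sets (limma adjusted p = 0.0845, unadjusted p = 0.0118). Such a split downward held for 11.6% of all probe sets and one upward for 16.4%. The dim end of the arrays was also lower in experiment 3. There the 10th percentile of scaled signal was at most 5.39, against at least 7.69 on the other arrays. AGL42 stood at percentiles 17.4 to 19.5 in experiment 3 and 21.2 to 25.5 in experiments 1 and 2. With quantile normalization its difference was −0.37 (limma adjusted p = 0.239). How much of the fall is particular to AGL42 was not tested. What differed between the experiments is not given in the labels.

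AGL72 acts with AGL42 and AGL71 in flowering at the shoot apex and in axillary buds. It read 9.50, 3.75 and 4.74 on the soc1-101D arrays. It read 15.9 in soc1-2 and 40.2, 5.08 and 2.88 in Col. A single array, Col of experiment 1, stood above the pseudocount, and the rest overlapped.

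The AGL72 difference of soc1-101D from Col was log2 −0.34 (95% interval −1.07 to 0.40, limma adjusted p = 0.817). It rested on experiment 1, with −1.05, while experiments 2 and 3 gave −0.08 and 0.12. Without experiment 1 it was 0.02. The plain soc1-2 difference was 0.67, of 2 signals that both lie under the pseudocount.

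AGL71 is the neighbour of AGL72 and a further TM3-clade gene. It read 9.22, 1.97 and 2.26 on the soc1-101D arrays. It read 4.04 in soc1-2 and 3.68, 6.50 and 5.01 in Col. All 7 readings were under the pseudocount, and the soc1-101D range enclosed the Col range.

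The AGL71 difference of soc1-101D from Col was log2 −0.05 (95% interval −0.55 to 0.46, limma adjusted p = 0.972). The plain soc1-2 difference was −0.06. With signals this low the pseudocount narrows every difference, so the interval does not bound the change in transcript.

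AGL19 promotes flowering after long cold independently of the repressor FLC, and Polycomb proteins are known to keep it silent before cold. It read 45.7, 65.7 and 4.85 on the soc1-101D arrays. It read 30.5 in soc1-2 and 46.2, 30.3 and 29.5 in Col. The highest and the lowest of the 7 readings were both from soc1-101D, on either side of the Col arrays.

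The AGL19 differences of soc1-101D from Col were −0.01, 0.78 and −1.02 in experiments 1, 2 and 3, with an SD of 0.90. The fitted difference was log2 −0.08 (95% interval −1.06 to 0.89, limma adjusted p = 0.975). On plain signals soc1-101D lay well below Col in experiment 3 and well above it in experiment 2, so this interval does not bound the fold of Col. Without experiment 3 it was 0.38, and no sign held across the experiments. The plain soc1-2 difference was 0.03.

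**Figure D2:**
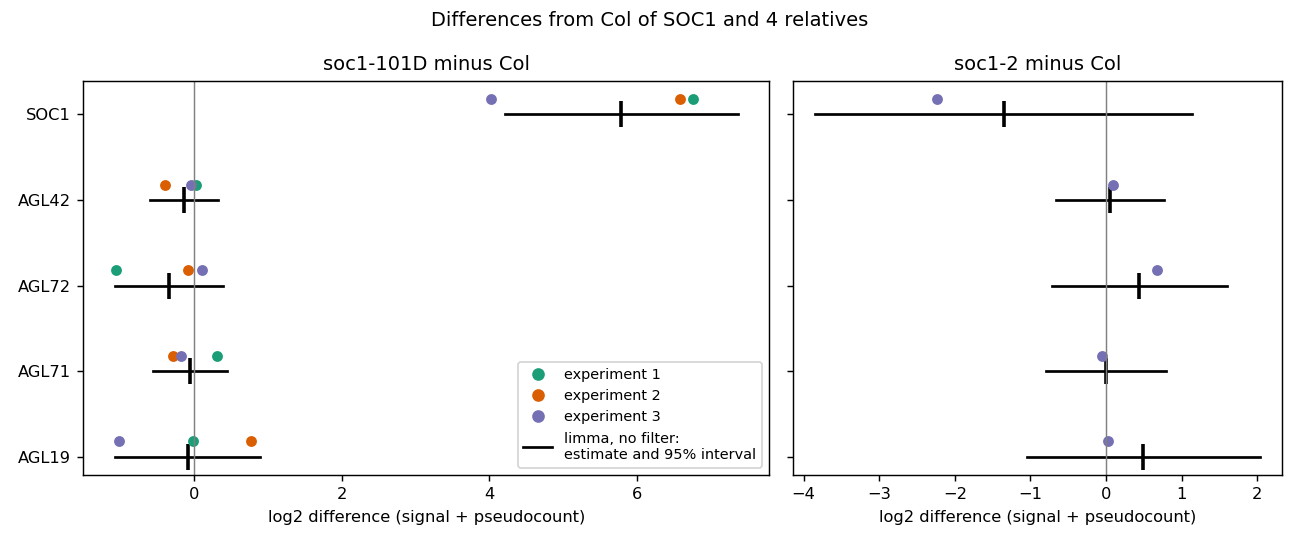
Log2 differences of soc1-101D from Col (left) and of soc1-2 from Col (right) for SOC1 and its 4 relatives, on the scale of signal plus pseudocount; the 2 panels have different horizontal scales. Points are single experiments, and black lines are the limma estimate with its 95% interval from the fit with no filter. In soc1-101D only the SOC1 interval, 4.21 to 7.36, lies clear of 0, and in soc1-2 all 5 intervals include 0.

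SOC1 was higher in soc1-101D than in Col in 3 of 3 experiments, and AGL42 and AGL19 each in 1 of 3. For AGL71 and AGL72 no such count is given. All 7 AGL71 readings and 6 of the 7 AGL72 readings were under the pseudocount, where no order can be read. For all probe sets, the 3 soc1-101D arrays lay above the 3 Col arrays in 2.34% and below them in 2.43%. SOC1 is among the first, and none of the 4 relatives is in either group. Not passing the test does not show that a relative was the same in both genotypes. Since their signals lie near or under the pseudocount, the intervals above do not bound the change in transcript.

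The genes around SOC1 were followed because soc1-101D is an activation-tagged allele. Of 12 loci listed on either side of SOC1, 7 had a named probe set and 5 were bright enough to be tested. None of the 5 passed the test in soc1-101D, where 0.542% of all tested probe sets did, so 5 probe sets with no call are no result about the neighbours. Their median difference was log2 −0.09, against −0.02 for all tested probe sets. On the soc1-2 array their median was −0.07, against −0.02.

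AT2G45670 lies directly beside SOC1 and encodes an acyltransferase of lipid synthesis. It read 1128, 863 and 399 in soc1-101D, against 1663, 1263 and 402 in Col. Its difference was log2 −0.37 ± 0.17 (limma SE, 95% interval −0.76 to 0.021, limma adjusted p = 0.479), with soc1-101D lower in experiments 1 and 2 and level in experiment 3. AT2G45700 differed by −0.28, AT2G45600 by −0.09, AT2G45710 by −0.03 and AT2G45720 by 0.06, with limma adjusted p of at least 0.602. The signs of AT2G45600, AT2G45710 and AT2G45720 changed among the alternative settings.

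Known flowering regulators outside the clade were taken from a list of 40 genes, of which 7 had a named probe set and 4 could be tested. Only the repressor gene SMZ passed, and it fell in soc1-101D: 1 of 4 tested members was called lower and 0 higher, against 0.271% of all tested probe sets in each direction. The list was chosen with earlier results of these data known, so this count is no result about flowering regulators as a set. The median of the 4 was log2 −0.11, against −0.02 for all tested probe sets. SMZ, an AP2-type repressor of FT, read 133, 69.5 and 135 in soc1-101D and 352 in soc1-2, against 590, 233 and 299 in Col (log2 −1.52 ± 0.20, limma adjusted p = 0.0279). With no filter its adjusted p was 0.479, and it passed in 7 of 12 alternative settings.

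The other 3 tested regulators did not pass. GI, a clock-linked activator of CO and FT, had a difference of log2 −0.15, FY, an RNA-processing factor of the autonomous pathway, of −0.08, and LD, a homeodomain protein of the same pathway, of −0.02, with limma adjusted p of at least 0.81. On the soc1-2 array LD was at −0.73, FY at 0.43 and SMZ at 0.22, as plain differences.

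SMZ has a close relative, SNZ, among the 3 dim members of that list, with FD and AGL24. SNZ read 167, 87.2 and 39.6 in soc1-101D and 90.4 in soc1-2, against 209, 153 and 119 in Col (log2 −0.74, limma adjusted p with no filter = 0.613). AGL24, the partner of SOC1, read 8.57, 3.00 and 4.42 in soc1-101D and 17.2 in soc1-2, against 11.6, 8.85 and 31.9 in Col. Its soc1-101D arrays lay below its Col arrays without overlap, as in 2.43% of all probe sets. Its signals were mostly under the pseudocount (log2 −0.53, limma adjusted p with no filter = 0.699). FD, the bZIP partner of FT, ran from 4.37 to 89.0 with no order by genotype.

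**Figure D3:**
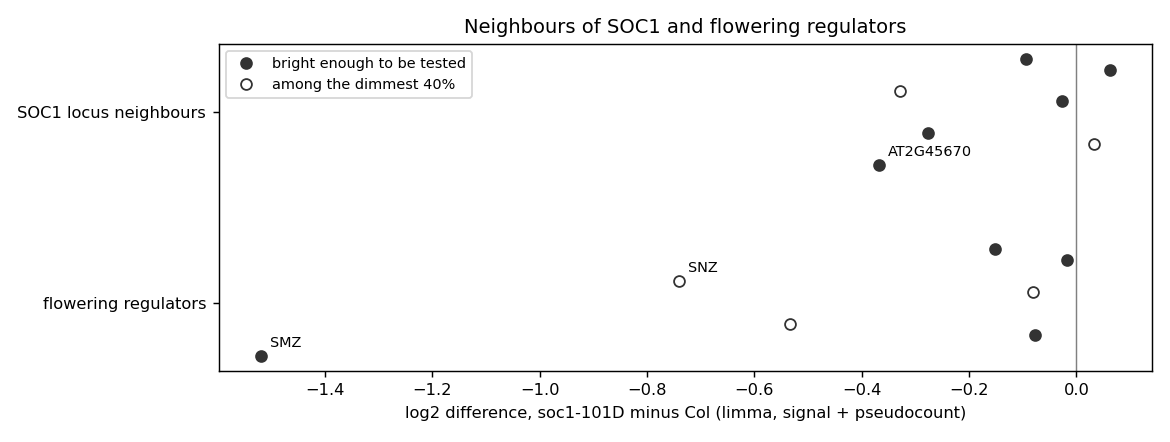
Fitted log2 difference of soc1-101D from Col for the named neighbours of SOC1 and the named flowering regulators, 1 point per probe set. Filled points were bright enough to be tested, open points were among the dimmest 40%, and vertical position within a row has no meaning. SMZ at −1.52 lies lowest, followed by SNZ at −0.74, AGL24 at −0.53 and the neighbour AT2G45670 at −0.37.

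Further MADS-box genes were taken from a list of 41, of which 11 had a named probe set and 1, AGL16, could be tested. AGL16, a repressor of flowering, read 316, 251 and 329 in soc1-101D and 280.3 in soc1-2, against 408, 249 and 352 in Col. Its difference in soc1-101D was log2 −0.14 ± 0.15 (limma SE, limma adjusted p = 0.802), within its spread. In soc1-2 it was at −0.31.

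AGL18, a repressor of flowering that was picked out after its values were seen, failed the filter on dim probe sets. It read 44.2, 61.4 and 38.9 in soc1-101D and 151 in soc1-2, against 144, 99.2 and 159 in Col. The soc1-101D arrays lay below all the others. The difference was log2 −1.18 ± 0.26 (limma SE) and did not pass with no filter (limma adjusted p = 0.523), where no probe set did. In this list soc1-101D lay below Col without overlap for 3 of the 11 named genes, AGL18, AGL24 and AGL30, and above for 0. For all probe sets the shares were 2.43% and 2.34%. AGL24 and AGL30 read mostly under the pseudocount. The list was chosen with earlier results known, so the count is no result about it. AGL66 went the other way, at log2 0.84, with overlap.

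The named genes most like SOC1 over the 7 arrays were found by Pearson's r of log2 values, as a description with no test. They were picked from 7276 named probe sets that passed the filter. They were AT1G65500 (r = 0.97), AT1G16500 (r = 0.96), the cytochrome P450 gene CYP71B24 (r = 0.94), AT1G04000 (r = 0.94) and a second P450 gene, CYP71B23 (r = 0.93). AT1G65500 read 1258, 1439 and 1056 in soc1-101D and 481 in soc1-2, against 341, 410 and 584 in Col. CYP71B24 read 239, 182 and 321 in soc1-101D and 95.8 in soc1-2, against 63.1, 48.6 and 120.3 in Col. Both, like SOC1, had their highest Col signal in experiment 3, which the choice by r over these same arrays favours.

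SOC1 moved much further than its matches. Their fitted differences in soc1-101D were log2 1.47 for AT1G65500, 0.50 for AT1G16500, 1.5 for CYP71B24, 0.36 for AT1G04000 and 1.26 for CYP71B23, against 5.79 for SOC1. On the soc1-2 array they were at −0.27, −0.12, −0.28, −0.41 and 0.09 from Col of experiment 3, against −2.24 for SOC1. The 7 points share arrays and, for SOC1, fall into high soc1-101D values and lower values in the other genotypes.

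**Figure D4:**
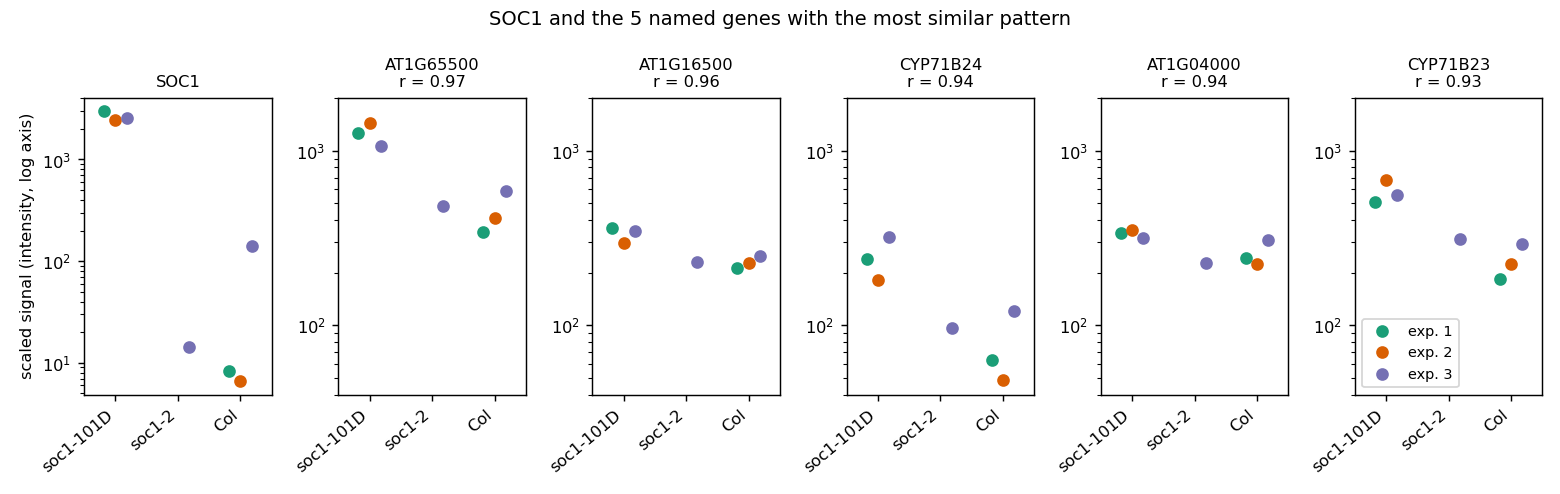
Scaled signal (intensity, log axis) on the 7 arrays of SOC1 and of the 5 named genes with the highest r to it, grouped as soc1-101D, soc1-2 and Col and coloured by experiment. The axis of SOC1 covers a wider range than that shared by the other 5. SOC1 separates soc1-101D from Col by a log2 of 5.79, and the matches by 0.36 to 1.5.

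The relatives had other matches, again as a description with no test. These are the highest r among 7276 named probe sets that passed the filter, over 7 arrays. An r picked in this way does not show shared regulation. All 7 AGL71 readings and 6 of the 7 AGL72 readings were under the pseudocount, where no order can be read. AGL42 was followed by AT1G20880 and AT5G14330 (both r = 0.99) and TBL16 (r = 0.98), which also read lower in experiment 3 than in experiments 1 and 2. AGL72 was followed by IQD19, AT1G72820 (both r = 0.94) and AT1G19010 (r = 0.93), each highest in Col of experiment 1. AGL71 was followed by AT5G56380, AT4G24060 (both r = 0.95) and AT1G35340 (r = 0.93), and AGL19 by AT5G63700 (r = 0.96), nad1 (r = 0.94) and AT3G20920 (r = 0.93). No gene was among the matches of 2 members.

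The labelled tissue was checked through marker genes. Named leaf markers were RCA and LHCB4.1 (2 of 5), with a summed signal of 55401 to 62986 in soc1-101D, 47058 in soc1-2 and 46578 to 66094 in Col. Named root markers were PYK10, EXPA7 and EXPA18 (3 of 4), with sums of 13711 to 22538 in soc1-101D, 20105 in soc1-2 and 16810.2 to 22954 in Col. The root sums were mostly PYK10, which alone read 13114, 22000 and 20601 in soc1-101D. None of the 5 markers passed in soc1-101D, where 0.542% of all tested probe sets did, so this count is no result about the tissue. No marker of the floral organ or seed lists was named here.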

How the data were processed

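The authors deposited a linear-scale intensity for each probe set on each array. No label names the software behind it (not given in the sources used here), and near-equal 2% trimmed means (495.5 to 496.2) show arrays brought to a common level. Arrays were brought to the same median signal, 19.3 was added, log2 was taken, and the dimmest 40% of probe sets were dropped, which left 13648. limma 3.58.1 in R 4.3.3 (lmFit, eBayes) was fitted with genotype and experiment number, and p-values were adjusted by Benjamini-Hochberg over all tested probe sets. The fit has 2 residual degrees of freedom. The experiment is a block because the labels give each mutant array its same-numbered Col array as baseline, and deviations of paired arrays correlated at r = 0.85, 0.74 and 0.82 across probe sets. Whether the experiments were grown separately is not stated in the labels, so the spread behind each p-value may be technical. The number of arrays limits the precision.

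Probe sets were named from platform annotation (13513 with 1 gene, 503 with several, 8730 with none), with symbols updated through RefSeq. Members and lists were chosen with earlier results of these data known. Named genes are the 5 members, the called and up to 6 lowest-p tested genes of each list, up to 3 by soc1-2 difference, and the likeness matches. Steps were tested on simulated data. No sequences were used here.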

Additional observations from a re-analysis of the deposited data

How the results depend on the processing

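The rise of SOC1 in soc1-101D kept its sign in 12 of 12 alternative settings, from log2 4.33 with a pseudocount of 0.5 times the common median to 6.67, and passed in 9. It was 5.79 but did not pass with no filter (limma adjusted p = 0.456), with the lowest 20% left out (0.222) or with no replicate block (5.79, 0.472); leaving out 1 experiment gave 5.30 to 6.67. The cause of the losses was not tested. All 9 passes were found with the dimmest probe sets left out as in the main setting. There SOC1 passed the filter only because of its soc1-101D arrays, so the passes depend on the change that is tested. They are not independent evidence for the call. For soc1-101D the 74 calls became 19 with quantile normalization, 49 and 175 with pseudocounts of 0.02 and 0.5 times the median, 170 with a trend in eBayes, and 0 with no filter, with the lowest 20% left out or with no replicate block; leaving out 1 experiment gave 26 to 129. With quantile normalization 11 of the 19 were higher, against 37 of 74. For soc1-2 the 0 calls became 14 with a pseudocount of 0.5 times the median, 6 with a trend, and 0 to 26 without 1 experiment. In soc1-101D none of the 4 relatives passed in the settings run; their soc1-2 differences were not tested across settings. Leaving out 1 experiment gave −0.56 to 0.018 for AGL72, −0.23 to 0.069 for AGL71 and −0.51 to 0.38 for AGL19, and AGL19 was 0.012 with a pseudocount of 0.5 times the median. Signs also turned for AT2G45600 (−0.23 to 0.12 leaving out 1 experiment), AT2G45710 (0.024 with quantile normalization, 0.00068 with deposited signals, −0.12 to 0.047 leaving out 1 experiment) and AT2G45720 (−0.030 to 0.23 leaving out 1 experiment). Against the mean of the 3 Col arrays, added after seeing the data, soc1-2 differed by −0.52 for SOC1 and −0.44 for AGL42. With a pseudocount of 0.02 times the median, AGL72 was at 1.56 and AGL71 at −0.17 in soc1-2.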
